A study of Sus scrofa with 20 samples.

Results

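The ileal mucosa of suckling piglets was compared between 14 and 21 days of age. The members were the arrays whose deposited labels give one of these ages and no weaning, which were 3 of S14D piglets and 4 of S21D piglets, 7 of the 20 arrays of the study. These piglets were kept with the sow and had not been weaned, and they were crosses of the Landrace, Large white and Duroc breeds. The other arrays came from older suckling piglets (S28D and S35D) and from piglets weaned at 21 days (21W28D and 21W35D), and they entered only through a common estimate of the spread, except where S28D values are given. Each array was hybridised with RNA from the scraped mucosa of the distal ileum of 1 piglet, so that the arrays are separate animals. The methods describe 4 S14D piglets, of which 3 have an array here, and they draw the piglets from litters of several sows without giving the litter of each array, so that litter and age cannot be told apart where they coincide. The small number of arrays limits the precision of every value below.

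The ileum of a suckling piglet takes up milk proteins whole. Its young enterocytes draw them in by clathrin-dependent apical endocytosis and break them down in large lysosomal vacuoles, and these vacuolated cells are replaced by adult-type enterocytes as the animal matures. The same segment carries the continuous ileal Peyer's patch, whose follicles are packed with dividing B cells and also hold macrophages and dendritic cells. The sections below follow these compartments in turn, from the vacuolar and metabolic genes of the enterocyte to the crypts, the stroma, the dividing cells and the immune cells. In scraped bulk mucosa, fewer cells of a type and less RNA per cell cannot be told apart.

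Values are deposited log2 units per probe set, in which a difference of 1 is a 2-fold change, and differences are S21D minus S14D throughout. The lowest value the normalization gives, 2.08, is called the floor here. Of 23999 probe sets tested with limma across all 20 arrays, 895 were at least 2-fold higher (3.73%) and 987 at least 2-fold lower (4.11%) in S21D piglets at a Benjamini-Hochberg adjusted p under 0.05. Of the lower ones, 141 had an S21D mean within 1 unit of the floor, and their differences are compressed there. For the description by function, each of the 6765 genes with a symbol was read from its brightest probe set and called on the adjusted p alone. By that rule 694 genes (10.3%) were higher and 680 (10.1%) lower, the median difference over all genes was 0, and the groups did not overlap for 641 and 627 of the called genes. These 2 percentages are the background for every gene group below. "Rose" and "fell" are used only of genes that passed this test, and array values are listed in the order of the replicate numbers.

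The S14D arrays were spread along the difference with age. Of the 694 genes that rose, S14D replicate 1 was the S14D array nearest to the S21D arrays in 612 and S14D replicate 3 the farthest in 576, and of the 680 genes that fell the numbers were 554 and 501. The 4 S21D arrays correlated with each other at 0.9932 to 0.9963, S14D replicate 1 with them at 0.9825 to 0.9877 and S14D replicate 3 with them at 0.9531 to 0.9642. Over the genes that rose the median SD was 0.39 in S14D and 0.18 in S21D piglets. Over the genes that fell it was 0.30 and 0.17. The standard errors below use a spread common to all groups. They can understate the uncertainty of genes whose S14D arrays were widely spread, as in many division and lymphocyte genes. S14D replicate 1 also had the highest mean of the erythrocyte gene list. The globin gene HBB spanned only 10.33 to 11.35 over the 7 arrays, and red cell precursor genes differed more. For ALAS2, the first enzyme of heme synthesis in red cell precursors, the values were 7.80, 3.86 and 2.08 in S14D and 3.00, 2.11, 2.08 and 2.08 in S21D piglets, and the part of this in the results below was not tested. Without S14D replicate 1 the test called 1055 genes higher and 859 lower. Without S14D replicate 3 it called 116 and 269, without S14D replicate 2 164 and 327, without S21D replicate 1 327 and 438, and without S21D replicate 3 238 and 412. In all, 104 genes were called higher and 251 lower whichever of the 7 arrays was left out, and such genes are called stable below. The markers fitted the labelled tissue, with the enterocyte genes VIL1 at 13.40 to 14.13 and LGALS4 at 13.42 to 14.06 and the goblet cell peptide TFF3 at 12.56 to 13.39 over the 7 arrays. Of the smooth muscle markers ACTG2 was bright at 12.67 to 13.25 and DES dim at 4.46 to 5.18, and MYH11 was not measured. Of 37 cell type markers, 27 were read from a probe set with a single symbol, and CD14, COL3A1, CHGA and ELAVL4 lay at or near the floor.

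**Figure D1:**
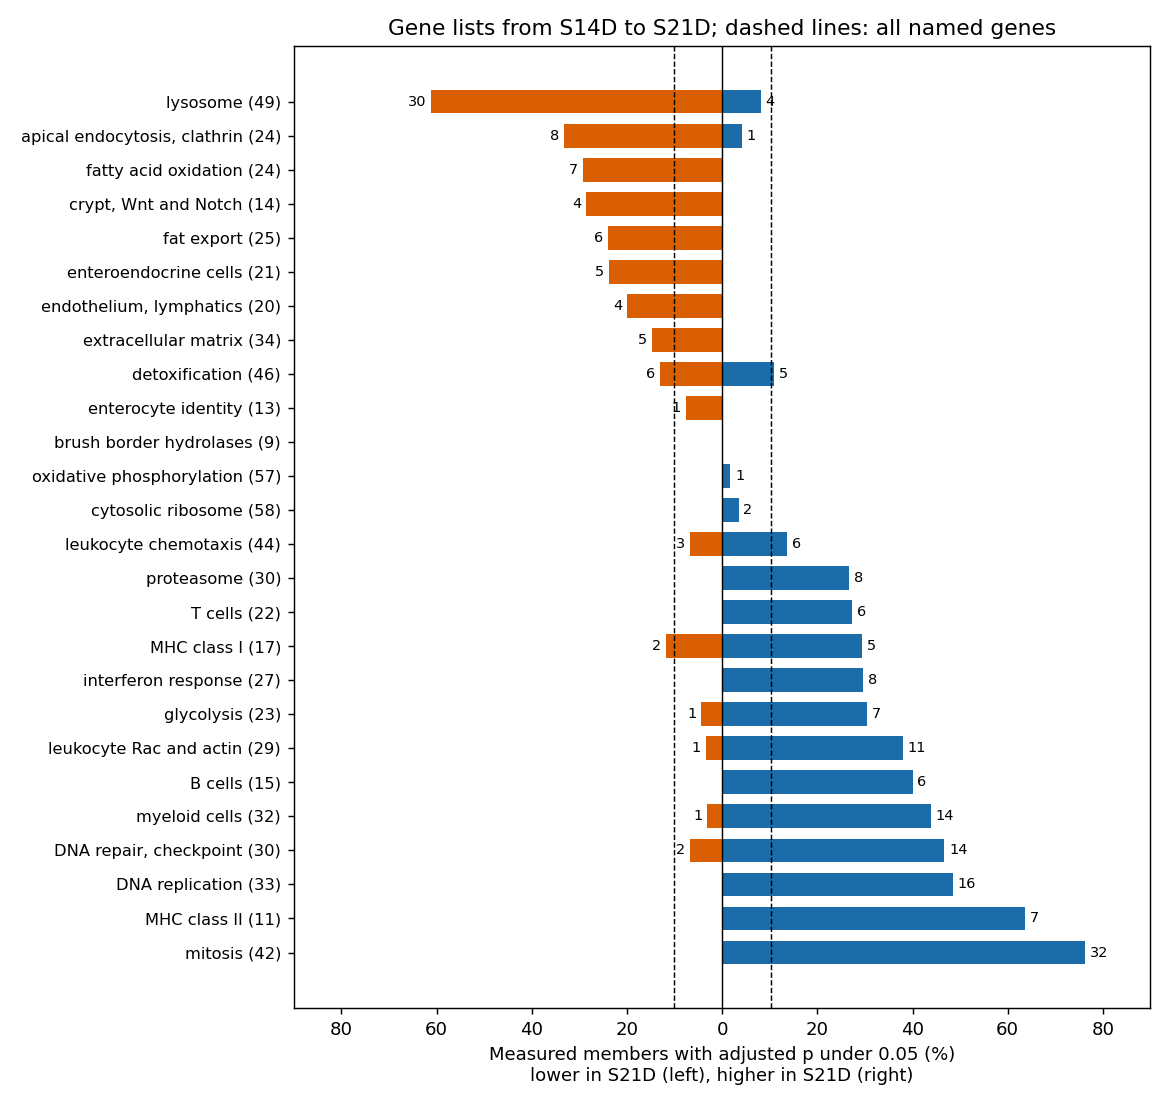
Share of the measured members of 26 gene lists that were lower (left, orange) or higher (right, blue) in S21D than in S14D piglets, in percent, with calls made by limma at an adjusted p under 0.05. The number after each name is how many members were measured, the numbers at the bar ends are members called, and the dashed lines are the shares over all 6765 genes (10.1% lower and 10.3% higher). Lysosomal genes reach 61.2% lower and mitotic genes 76.2% higher, whereas the measured brush border hydrolases, which lack lactase and sucrase-isomaltase, have no called member.

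Lysosomal genes fell more often than those of any other list described here. Of 49 measured hydrolases and lysosomal membrane genes, 30 fell, 4 rose and 15 were not called, with a median difference of -0.95. NEU1, the lysosomal sialidase, had values of 10.10, 10.82 and 11.46 in S14D and 6.97, 6.30, 7.36 and 7.31 in S21D piglets, which is a difference of -3.81 (standard error 0.53, adjusted p = 4.75e-04). Even the lowest S14D array was more than 2 log2 units above the highest S21D array. HEXA, the alpha subunit of beta-hexosaminidase, had values of 12.70, 13.03 and 13.21 in S14D and 10.18, 10.31, 10.30 and 11.01 in S21D piglets, a difference of -2.53 (standard error 0.23, adjusted p = 7.96e-06). LGMN, an asparaginyl endopeptidase, was among the brightest of these genes at 14.14, 14.68 and 14.92 in S14D and 12.27, 12.29, 12.15 and 12.83 in S21D piglets (-2.20 (standard error 0.32, adjusted p = 7.36e-04)). In these genes the groups lay well apart, and S14D replicate 1 was the lowest of its group in each. Other glycosidases and sulfatases fell with them, among them FUCA1 (-2.35), which removes fucose, GLA (-2.25), an alpha-galactosidase, GUSB (-1.91), a beta-glucuronidase, GLB1 (-1.76), the lysosomal beta-galactosidase, and the sulfatase ARSA (-2.25). Lipid and protein breakdown was represented by the acid ceramidase ASAH1 (-2.38), the tripeptidyl peptidase TPP1 (-1.97), the cathepsins CTSH (-1.42) and CTSB (-1.03) and the sphingolipid activator precursor PSAP (-1.31). The membrane proteins LAMP1 (-1.52), LAMP2 (-0.74) and SCARB2 (-1.0) and the calcium channel MCOLN1 (-1.79) fell as well, as did NPC2 (-1.72), which passes on cholesterol.

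The lysosomal genes that rose were HPSE (2.25), which cleaves heparan sulfate, ACP5 (1.97), the tartrate-resistant phosphatase known from macrophages and osteoclasts, GM2A (1.94), the activator of ganglioside breakdown by HEXA, and the proton pump subunit ATP6V0D1 (0.30). A dimmer probe set of ATP6V0D1 fell (-1.14, adjusted p = 5.98e-04), so that its count as a rise holds for the brightest probe set only. The rises numbered 1 without S14D replicate 2 or 3. GM2A had values of 10.30, 9.90 and 9.38 in S14D and 11.65, 11.74, 11.90 and 11.92 in S21D piglets, opposite in direction to the enzyme it serves. Its groups did not overlap and its call was stable. The cathepsins were not uniform, since CTSD (-0.69, adjusted p = 0.103) and CTSC (-0.95, adjusted p = 0.105) did not pass. Of the 30 falls, 29 had groups that did not overlap, as had 627 of the 680 falls over all genes. Stable were 21 of the 30, against 251 of the 680. The number of falls was 21 to 34 as each array was left out in turn. The mean of the list, centred on the 7 arrays, was 0.14, 0.61 and 0.83 in the S14D arrays and -0.56, -0.42, -0.35 and -0.26 in the S21D arrays.

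Among 24 genes of apical endocytosis and clathrin, 8 fell and 1 rose, with a median of -0.37. DAB2, a clathrin adaptor for receptors of the LDL receptor family, fell furthest, with values of 13.73, 14.23 and 14.34 in S14D and 9.56, 8.14, 9.71 and 11.32 in S21D piglets (-4.42 (standard error 0.94, adjusted p = 0.00819)). The S14D arrays lay within 1 unit of each other, whereas the S21D arrays spread over more than 3 units, with replicate 4 the highest. AMN, the membrane anchor of the vitamin B12 and protein receptor cubilin, had values of 10.96, 11.58 and 11.60 in S14D and 8.71, 9.27, 9.23 and 10.20 in S21D piglets, a difference of -2.03 (standard error 0.51, adjusted p = 0.0194). S21D replicate 4 was again the highest of its group. RAB11A, a GTPase of recycling endosomes, had values of 12.48, 13.20 and 13.46 in S14D and 11.75, 12.13, 11.87 and 12.08 in S21D piglets (-1.09 (standard error 0.23, adjusted p = 0.00709)). FCGRT, the neonatal Fc receptor that carries IgG across epithelia, fell less, with values of 12.96, 13.21 and 13.46 in S14D and 12.34, 12.72, 12.34 and 12.42 in S21D piglets (-0.75 (standard error 0.21, adjusted p = 0.0307)). The late endosomal GTPase RAB7A (-0.58), the recycling GTPase RAB11B (-0.50), the clathrin light chain CLTA (-0.42) and the adaptor subunit AP1B1 (-0.35) changed by smaller amounts. A dimmer probe set of CLTA rose (0.62, adjusted p = 0.00795), so that its count as a fall holds for the brightest probe set only. HIP1R, which links clathrin coats to actin, rose (1.84). The number of falls was 4 without S14D replicate 3, 5 without S14D replicate 2, S21D replicate 1 or S21D replicate 3, and 10 without S14D replicate 1. Stable falls were 4, DAB2, RAB7A, AP1B1 and, in its brightest probe set, CLTA.

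A few genes outside this list are given because they lay among the larger falls. CLCN5, an endosomal chloride-proton exchanger needed for protein reabsorption in the kidney, had values of 7.54, 8.60 and 8.81 in S14D and 4.48, 5.12, 5.18 and 6.0 in S21D piglets (-3.12 (standard error 0.61, adjusted p = 0.00524)). The secreted phosphodiesterase SMPDL3A had values of 13.16, 14.62 and 15.15 in S14D and 10.93, 11.05, 11.36 and 11.44 in S21D piglets (-3.12 (standard error 0.40, adjusted p = 2.56e-04)). FOLR2, a folate receptor, had values of 9.47, 10.22 and 10.31 in S14D and 6.35, 5.69, 6.36 and 6.40 in S21D piglets (-3.80 (standard error 0.23, adjusted p = 1.22e-07)). SLC46A1, the proton-coupled folate transporter of the gut, had values of 7.17, 7.99 and 9.18 in S14D and 4.79, 4.55, 4.55 and 5.98 in S21D piglets (-3.15 (standard error 0.50, adjusted p = 0.00124)). All 4 genes had groups that did not overlap and were stable. The S28D piglets (n = 4) lay lower again in mean, at 5.83 ± 0.37 (SD) for NEU1, 7.45 ± 0.86 for DAB2 and 5.03 ± 0.24 for FOLR2, against 6.99 ± 0.49, 9.68 ± 1.30 and 6.20 ± 0.34 in S21D piglets. These later values are given as a description and the difference was not tested here.

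**Figure D2:**
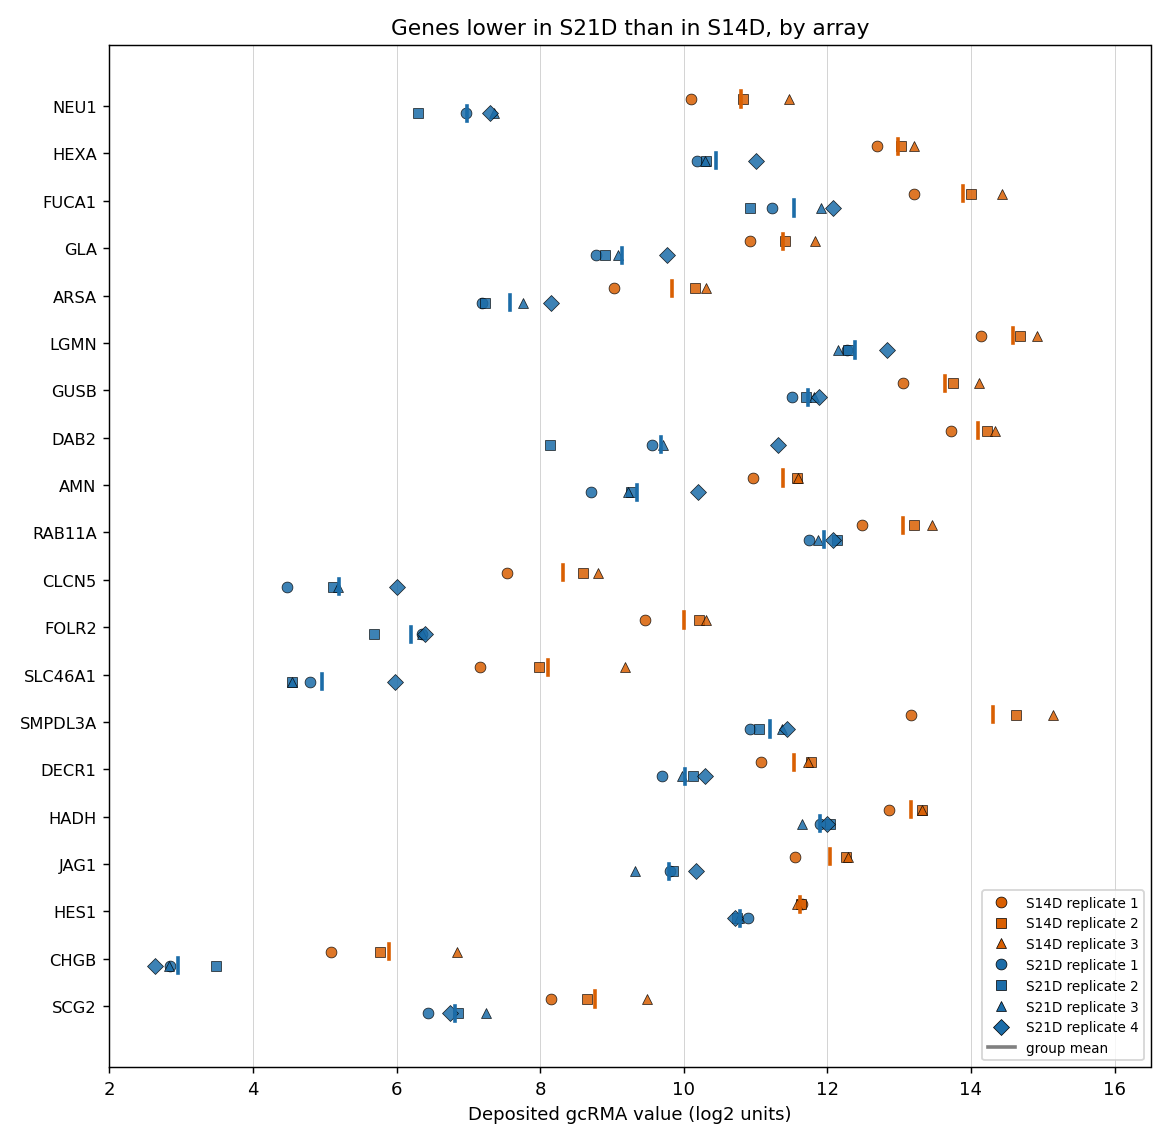
Deposited log2 values (horizontal axis) of 20 genes that fell from S14D (orange) to S21D (blue), with 1 symbol per array, the symbol shape for the replicate number and a bar at each group mean. The groups are separate for every gene shown, and DAB2 has S14D values of 13.73 to 14.34 against S21D values of 8.14 to 11.32.

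Genes of fat absorption and of fatty acid use fell or were not called. Of 25 genes of fat export, 6 fell and none rose, with a median of -0.82. APOC2, the activator of lipoprotein lipase, fell by 7.74 and was not uniform in S21D piglets, with values of 13.78, 14.57 and 14.74 in S14D and 3.09, 2.08, 10.46 and 10.85 in S21D piglets. A pair of the S21D arrays lay near the floor and the other pair near 10 units. ACSL3 (-2.13), which activates fatty acids, the lipid droplet proteins PLIN2 (-1.57) and PLIN3 (-1.31), the acid lipase LIPA (-1.48) and the lipoprotein receptor SCARB1 (-0.94) fell. The apolipoproteins APOA4 (-3.43, adjusted p = 0.137) and APOB (-1.50, adjusted p = 0.0675), the transfer protein MTTP (-1.19, adjusted p = 0.0779) and the fatty acid binding protein FABP1 (1.35, adjusted p = 0.316) did not pass. The count was 2 without S14D replicate 2, S14D replicate 3 or S21D replicate 3, 3 without S21D replicate 1 and 6 without S14D replicate 1, and APOC2 and LIPA were stable. No gene of 13 in cholesterol synthesis was called, with a median of -0.44, though 3 were lower without S14D replicate 1.

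For fatty acid oxidation, 7 of 24 genes fell, none rose and 22 had a negative difference, with a median of -0.47. DECR1, which handles unsaturated fatty acids, had values of 11.08, 11.77 and 11.73 in S14D and 9.70, 10.13, 9.97 and 10.29 in S21D piglets (-1.50 (standard error 0.31, adjusted p = 0.00675)). HADH, a dehydrogenase of the short-chain steps, had values of 12.86, 13.32 and 13.32 in S14D and 11.89, 12.04, 11.65 and 12 in S21D piglets (-1.27 (standard error 0.23, adjusted p = 0.00315)). In both, every S14D array was above every S21D array. The acyl-CoA dehydrogenases ACADS (-1.24) and ACADM (-1.14), the electron carrier subunit ETFB (-0.72), ECHS1 (-0.55) and the peroxisomal HSD17B4 (-0.45) fell by less, and 5 of these 7 calls were stable. The entry enzyme CPT1A differed by 0.07 and did not pass. Oxidative phosphorylation, by contrast, had 57 measured genes of which 1 rose (NDUFA4 (0.59)) and none fell and the median was -0.06, and the call was lost without S14D replicate 2 or 3 or S21D replicate 3. Among 23 genes of glycolysis and gluconeogenesis 7 rose (30.4%) and 1 fell (4.35%), with a median of 0.25. The differences were 13 positive and 10 negative, and the mean of the list overlapped between the groups. The rises were PGAM2 (2.56), ALDOC (1.46), HK1 (1.16), TPI1 (0.80), ENO1 (0.52), PKM (0.42) and GAPDH (0.36), and the fall was the mitochondrial phosphoenolpyruvate carboxykinase PCK2 (-2.41). In PGAM2 the S14D mean of 2.81 lay within 1 unit of the floor. The rises numbered 1 without S14D replicate 3, 2 without S14D replicate 2, 3 without S21D replicate 1 or 4, and 4 without S21D replicate 2 or 3.

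In arginine, citrulline and glutamine metabolism 3 of 18 genes fell (16.7%) and 1 rose (5.56%). OTC, which makes citrulline in the enterocyte, had values of 9.56, 10.29 and 10.22 in S14D and 7.20, 8.36, 7.5 and 8.23 in S21D piglets (-2.20 (standard error 0.56, adjusted p = 0.0198)). The glutamine synthetase GLUL (-0.76) and the polyamine enzyme SAT1 (-0.35) fell by less, and the ornithine decarboxylase ODC1 (0.57) rose, each in its brightest probe set, while the second probe sets of GLUL (-1.19, adjusted p = 0.169) and ODC1 (0.37, adjusted p = 0.159) did not pass. The falls numbered 1 without S14D replicate 3 or S21D replicate 3, and the rises 2 without S14D replicate 1. CPS1, the other mitochondrial enzyme of citrulline synthesis, was lower but not called (-0.91, adjusted p = 0.068). Among 46 genes of detoxification 5 rose and 6 fell, near the background in both directions, and the rises numbered 2 or 3 without S14D replicate 2 or 3 or S21D replicate 1, 2 or 3 and the falls 2 without S14D replicate 2 or 3 and 3 without S21D replicate 1 or 3. The 5 largest changes were falls of CBR1 (-6.90), a carbonyl reductase, and GSTA1 (-4.17), a glutathione transferase, and rises of UGT2B31 (3.70), a glucuronosyltransferase, SULT1A3 (2.65), a sulfotransferase, and CYP3A29 (2.64), a cytochrome P450 of the CYP3A family. CYP3A29 had values of 9.52, 10.56 and 10.42 in S14D and 12.31, 12.91, 12.68 and 13.31 in S21D piglets, with the groups more than 1 unit apart. The other 2 probe sets of GSTA1 gave -1.79 (adjusted p = 0.131) and 0.27 (adjusted p = 0.41), and genes of these families are similar enough in sequence that a probe set may read more than 1 of them.

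Of 22 nutrient transporters 3 fell (13.6%) and 2 rose (9.09%), near the background in both directions. Besides SLC46A1, the nucleoside transporter SLC28A1 (-1.67) and the amino acid transporter heavy chain SLC3A2 (-1.05) fell, and the cationic amino acid transporter SLC7A1 (1.81) and the sodium-glucose cotransporter SLC5A1 (0.81) rose. SLC5A1 was already near the top of the scale, with values of 13.22, 13.62 and 13.49 in S14D and 14.26, 14.54, 13.77 and 14.44 in S21D piglets, and its groups were close to overlapping. Without S14D replicate 2 or 3 no transporter rose and 1 fell, without S21D replicate 1, 2 or 4 none rose, and without S21D replicate 3 the numbers were 1 and 1. Among 18 genes of iron, zinc and copper handling 4 fell and none rose. They were the heme oxygenases HMOX1 (-1.34) and HMOX2 (-0.68), the iron-response regulator IREB2 (-0.75) and the ferritin light chain FTL (-0.43), for which a dimmer probe set differed by 0.39 (adjusted p = 0.409). They numbered 2 without S14D replicate 2 or 3 or S21D replicate 1, 2 or 3. In the ileal bile acid list the carrier FABP6 rose by 1.98, with every S21D array above every S14D array, and the export pump ABCC2 (-2.44) fell, although its groups overlapped and the call held only without S14D replicate 1.

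Few structural genes of the enterocyte passed the test, while most of their differences were negative. None of 9 brush border hydrolases was called, with a median of -0.18 and the metalloprotease MEP1B (-1.04, adjusted p = 0.0794) not passing. These were the measured part of a list of 26. Lactase (LCT), sucrase-isomaltase (SI) and maltase-glucoamylase (MGAM) were not measured, so that nothing is said of them here. Of 13 genes of enterocyte structure and identity 1 fell (7.69%, against 10.1% of all named genes), MYO6 (-1.42), a motor of endocytic vesicles. The median was -0.60 with 10 negative differences. The mean of this list was 0.22, 0.33 and 0.52 in the S14D arrays and -0.27, 0.03, -0.72 and -0.11 in the S21D arrays, without overlap. Such a lack of overlap was common among the lists, and the means of the reference genes and of the cytosolic ribosome did not overlap either. The count was 4 without S14D replicate 1, 2 without S21D replicate 2 and 0 without S14D replicate 2 or 3. HNF4A, a factor of enterocyte identity, differed by -0.61 (adjusted p = 0.232) and VIL1 by -0.35 (adjusted p = 0.542). Of 16 tight junction genes 1 fell (6.25%), or 2 without S14D replicate 1. It was CLDN11 (-3.19), with an S21D mean of 2.96, within 1 unit of the floor. Of the 16 differences 14 were negative, with a median of -0.44. Of 17 genes of adherens junctions, desmosomes and gap junctions 4 fell (23.5%), GJA4 (-1.01), VCL (-0.94), NECTIN2 (-0.80) and CTNNB1 (-0.53), against 7 without S14D replicate 1 and 2 without S14D replicate 2 or 3 or S21D replicate 1 or 3. CTNNB1, beta-catenin, had 5 probe sets whose differences ran from -1.08 to 0.17, and 2 of them passed. Ion transport was mixed, with rises of CA9 (1.95) and KCNN4 (1.39) and falls of CFTR (-1.41), AQP11 (-1.39) and SLC9A3R2 (-0.62) among 32 genes. The rises were 6.25% and the falls 9.38% of these genes, both below the background. CFTR, the apical chloride channel, was dim throughout, with values of 3.11, 3.20 and 4.16 in S14D and 2.08, 2.08, 2.08 and 2.08 in S21D piglets, so that its fall ended at the floor. Without S14D replicate 2 or 3 no ion transport gene rose and 1 fell, and without S14D replicate 1 the falls were 5.

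Among the rarer epithelial lineages, 5 of 21 enteroendocrine genes fell and none rose. CHGB, a granin of hormone granules, had values of 5.09, 5.77 and 6.84 in S14D and 2.85, 3.48, 2.83 and 2.64 in S21D piglets (-2.95 (standard error 0.49, adjusted p = 0.00175)). The granin SCG2 (-1.94), the glycoprotein hormone alpha chain CGA (-4.46) and somatostatin (SST (-1.27)) fell too, and SCGN (-0.11) passed with a small difference near the floor. The hormone genes were not uniform, since the precursor of the glucagon-like peptides, GCG (-1.38, adjusted p = 0.0644), and cholecystokinin, CCK (1.41, adjusted p = 0.223), differed in opposite directions without passing. CGA, CHGB and SCG2 were stable, and the falls were 3 to 5 in number as each array was left out, with 3 without S14D replicate 3 and without S21D replicates 1, 3 or 4. Of 10 goblet cell genes only the transcription factor FOXA1 (-1.15) was called, and none was without S14D replicate 2 or 3 or S21D replicate 3 or 4.

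Of 14 genes of crypt stem cells and of the Wnt and Notch pathways, 4 fell and none rose. JAG1, a Notch ligand, had values of 11.55, 12.26 and 12.29 in S14D and 9.81, 9.85, 9.32 and 10.18 in S21D piglets (-2.24 (standard error 0.40, adjusted p = 0.00276)). HES1, a target of Notch that holds back secretory differentiation, had the tightest groups, with values of 11.65, 11.63 and 11.57 in S14D and 10.89, 10.74, 10.77 and 10.71 in S21D piglets (-0.84 (standard error 0.11, adjusted p = 3.06e-04)). Every array of S14D was above every array of S21D in both genes, and both were stable. ASCL2, a transcription factor of intestinal stem cells, had values of 8.70, 7.77 and 7.90 in S14D and 5.82, 6.38, 5.37 and 5.35 in S21D piglets (-2.39 (standard error 0.72, adjusted p = 0.0395)), and here S14D replicate 1 was the farthest from the S21D arrays rather than the nearest. PROM1, a membrane protein of crypt cells, fell (-1.21), and the stem cell marker OLFM4 (-1.17, adjusted p = 0.189) did not pass. The count was 2 without S14D replicates 2 or 3 or S21D replicates 3 or 4.

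Of 32 genes of glucocorticoid and thyroid hormone response 6 fell and none rose. They were IGF1R (-2.15), the receptor of insulin-like growth factor 1, TAT (-1.33), SGK1 (-1.06), DIO1 (-0.68), THRB (-0.57) and IGFBP5 (-0.25), of which IGF1R was stable. In TAT, DIO1 and THRB the S21D arrays lay at or near the floor. With probe sets that reached 4 log2 units in fewer than 3 arrays left out, 16 genes remained, of which 2 fell and 1 rose. The glucocorticoid receptor NR3C1 (0.27, adjusted p = 0.613) was not called. The count was 2 without S14D replicate 2 or 3 and 3 without S21D replicate 1, 3 or 4. Of 8 genes of the circadian clock, the repressors BHLHE40 (-1.30) and NFIL3 (-0.91) fell, with 3 falls without S14D replicate 1, 1 without S21D replicate 1, 2 or 4 and 0 without S14D replicate 2 or 3.

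The lists of stromal cells did not move alike, and few of their genes passed the test. Of 17 smooth muscle genes 1 fell, or 5.88% against 10.1% of all named genes, ACTA2 (-0.99), a call that held only without S21D replicate 2, while 15 of the differences were negative and the median was -0.59. The mean of the smooth muscle list was 0.56, 0.52 and 0.41 in the S14D arrays and -0.26, -0.23, -0.47 and -0.53 in the S21D arrays. These groups did not overlap, which was also so for the reference genes and the cytosolic ribosome. The part of muscle RNA in the other differences was not tested. Of 34 genes of collagen and extracellular matrix 5 fell (14.7%). Among them were MMP2 (-1.35), the laminins LAMC1 (-1.08) and LAMB1 (-1.01) and the pericyte receptor PDGFRB (-0.82). The mean of this list overlapped between the groups. None of the 5 was stable, and the number fell to 0 without S21D replicate 3 and to 1 without any one S14D array or without S21D replicate 4. Of 20 endothelial and lymphatic genes 4 fell, with ANGPT1 (-2.26), which signals to endothelium, and LYVE1 (-1.79), a lymphatic receptor, stable. LYVE1 had values of 7.37, 7.74 and 8.44 in S14D and 6.49, 6.09, 5.87 and 5.80 in S21D piglets. The endothelial adhesion molecule PECAM1 (-0.73) and the transcription factor ERG (-0.59) were the other falls, and 2 falls were left without S14D replicate 3 or S21D replicate 2, 3 or 4. The genes of follicular stroma and M cells were mostly higher in mean, with a median of 1.30 and 12 positive differences among 15 genes. Only SPIB, which the B cell list holds too, rose (6.67%), and CTSH, which the lysosomal list holds too, fell (6.67%). Both shares were below the background, so that this direction rests on differences that did not pass. The mean of that list was -0.01, -0.60 and -1.84 in the S14D arrays and 0.55, 0.46, 0.87 and 0.57 in the S21D arrays. The 16 genes of enteric neurons and glia had a median of 0, with 4 positive and 5 negative differences.

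In the fit to all 20 arrays, division genes rose more often than any other list described here. Of 42 genes of mitosis and the anaphase-promoting complex 32 rose and none fell, with a median of 1.58 and 41 positive differences. CCNB1, the mitotic cyclin B1, had values of 11.56, 10.20 and 8.55 in S14D and 12.12, 12.01, 12.45 and 11.92 in S21D piglets (2.02 (standard error 0.54, adjusted p = 0.0247)). AURKB, the kinase of the chromosomal passenger complex, had values of 8.41, 6.64 and 4.15 in S14D and 8.86, 8.42, 9.32 and 9.34 in S21D piglets (2.59 (standard error 0.73, adjusted p = 0.0303)). CDC25B, a phosphatase that starts mitosis, had values of 9.97, 8.22 and 6.25 in S14D and 10.88, 10.46, 10.97 and 10.94 in S21D piglets (2.66 (standard error 0.70, adjusted p = 0.0221)). In all 3 genes the S21D arrays lay close together and S14D replicate 3 was the lowest, and in AURKB S14D replicate 1 nearly equalled the lowest S21D array. The kinases NEK2 (2.43) and AURKA (2.28), the ligase adaptor CDCA3 (2.32), the survivin gene BIRC5 (1.95), the cyclins CCNB2 (1.96) and CCNA2 (1.88) and the kinetochore genes NDC80 (1.75), NUF2 (1.81) and SPC25 (1.87) rose, whereas CDC20 (2.45, adjusted p = 0.0838) and PLK1 (1.99, adjusted p = 0.0587) did not pass.

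These counts rested on the arrays in the fit. With only the S14D and S21D arrays in it, 1 mitotic gene was called higher, with the same median of 1.58. Without S14D replicate 1 the number of mitotic genes called higher was 39, without S14D replicate 2 it was 2, without S14D replicate 3 it was 2, and without S21D replicates 1, 2, 3 and 4 it was 8, 25, 3 and 17. The median difference kept its sign and ran from 1.01 to 2.18. SPC25 and KIFC1, a mitotic motor, were the stable ones. Of the 32 called genes, 24 had groups that did not overlap, against 641 of the 694 rises over all genes. The mean of the list was 0.29, -0.90 and -2.08 in the S14D arrays and 0.70, 0.42, 0.91 and 0.66 in the S21D arrays, so that S14D replicate 1 lay just below the nearest S21D array and S14D replicate 3 far below.

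The mean of the DNA replication list had the same order of arrays as that of mitosis. Of 33 genes 16 rose and none fell, all 33 differences were positive, and the median was 1.35. TYMS, which makes thymidylate, had values of 6.40, 4.78 and 3.44 in S14D and 7.65, 7.64, 8.35 and 7.18 in S21D piglets (2.83 (standard error 0.61, adjusted p = 0.00883)). PCNA, the sliding clamp of the polymerases, had values of 12.57, 11.48 and 10.06 in S14D and 13.41, 13.04, 13.24 and 13.10 in S21D piglets (1.83 (standard error 0.50, adjusted p = 0.0258)). The helicase subunits MCM5 (2.54) and MCM3 (1.99), the origin recognition gene ORC1 (2.41) and the loading factor CDC45 (1.90) rose by similar amounts. None of the 16 was stable, with 26 calls without S14D replicate 1 but 1, 0, 5, 3 and 9 without S14D replicates 2 and 3 and S21D replicates 1, 3 and 4. With only the S14D and S21D arrays in the fit 1 replication gene was called. Of 30 genes of DNA repair and the damage checkpoint 14 rose and 2 fell, with a median of 1.13. The rises were led by FANCD2 (2.52), RAD51AP1 (2.43), HUS1 (2.28), RAD54L (2.24) and, nearly equal, CHEK1 (1.88), CHEK2 (1.88) and FANCL (1.88), and the falls were the nucleotide excision repair genes XPC (-1.21) and XPA (-0.80). HUS1, a subunit of the checkpoint clamp, stood apart from the others in its array pattern, with values of 7.35, 8.36 and 7.62 in S14D and 9.89, 9.58, 10.13 and 10.64 in S21D piglets (2.28 (standard error 0.35, adjusted p = 0.00105)), and S14D replicate 1 was its lowest array. HUS1, RAD1 of the same clamp (1.46) and FANCG (1.52) were the stable rises, and the count of rises was 3 to 19 as each array was left out, lowest without S14D replicate 3 at 3 and without S14D replicate 2 at 4, and 5 without S21D replicates 1 or 3 and 9 without S21D replicate 4.

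Among 29 regulators of G1 and of entry into S phase 5 rose and 1 fell, nearer to the background. CDKN3, a phosphatase of cyclin-dependent kinases, rose and was stable (1.64), WEE1 (1.36), an inhibitor of mitotic entry, and CDKN2D (1.02), an inhibitor of the G1 kinases, rose as well, and CDKN1A (-0.61), an inhibitor induced by p53, fell. The rises numbered 9 without S14D replicate 1, 1 without S14D replicate 2 or 3 or S21D replicate 3 and 3 without S21D replicate 1 or 2, and the fall was called only without S14D replicate 1 or S21D replicate 4. Dimmer probe sets were not called for CDC45 (0.93, adjusted p = 0.0518), CHEK1 (1.85, adjusted p = 0.229) and RAD51AP1 (0.65, adjusted p = 0.318).

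**Figure D3:**
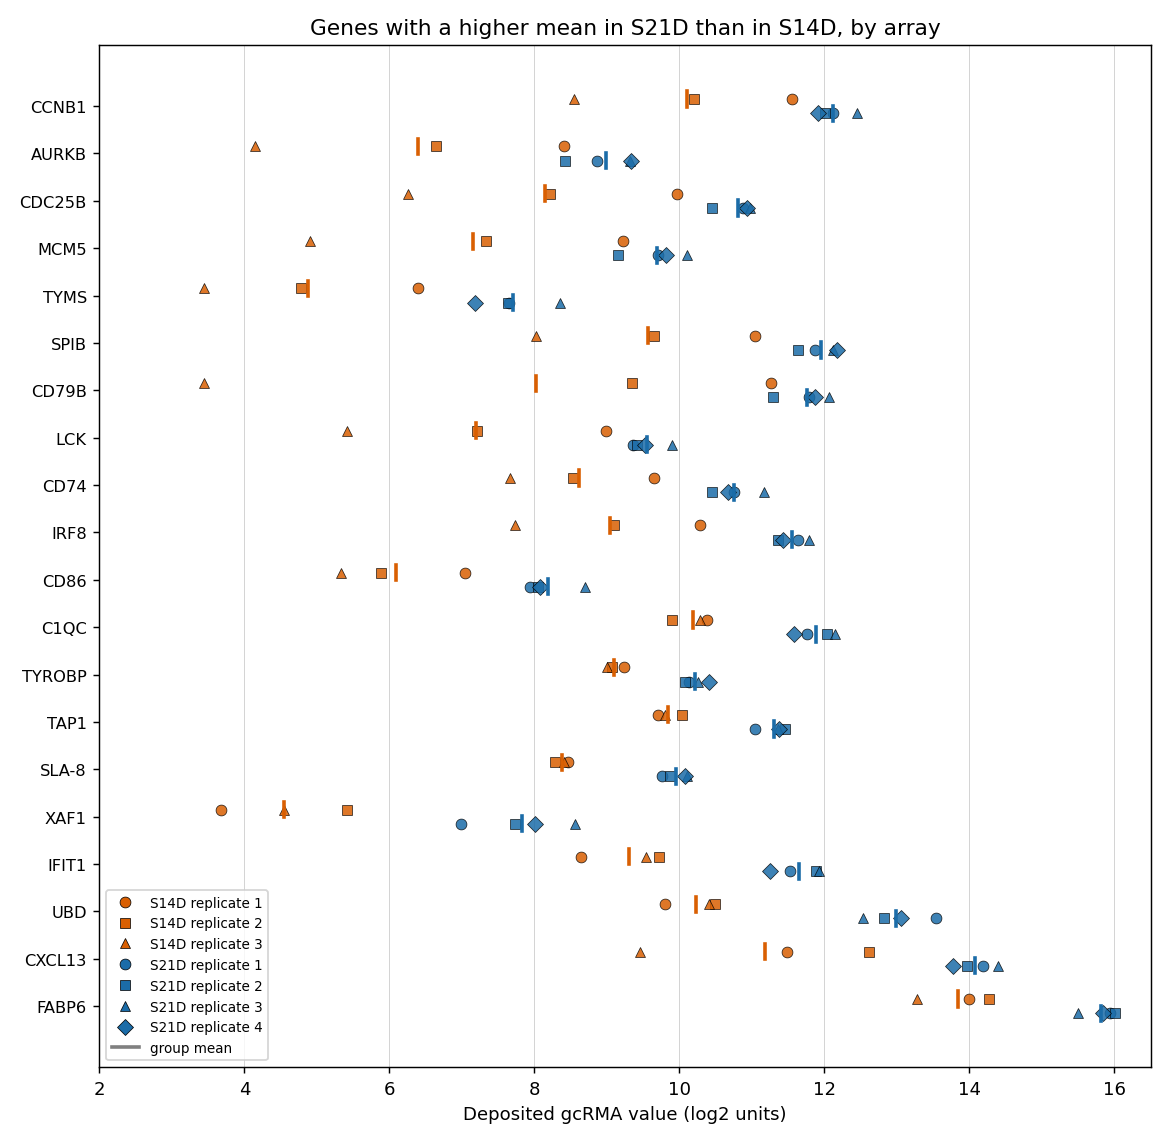
Deposited log2 values (horizontal axis) of 20 genes with a higher mean in S21D (blue) than in S14D (orange) piglets, with 1 symbol per array, the symbol shape for the replicate number and a bar at each group mean. Division and lymphocyte genes (CCNB1 to LCK) have widely spread S14D arrays with replicate 1 (circle) close to the S21D arrays, whereas TYROBP, TAP1 and SLA-8 have tight S14D arrays. CD79B and CXCL13 did not pass the test.

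The B cell and T cell genes that passed the test were all higher in S21D piglets. In the means of both lists, as in those of mitosis and DNA replication, S14D replicate 1 was the highest and S14D replicate 3 the lowest S14D array, while single genes such as CD8A and CCR9 had other orders. Of 15 B cell genes 6 rose and none fell, with a median of 2.12 and 14 positive differences. SPIB, a transcription factor of B cells and M cells, had values of 11.04, 9.65 and 8.02 in S14D and 11.88, 11.64, 12.12 and 12.17 in S21D piglets (2.38 (standard error 0.69, adjusted p = 0.0331)). CD79B, the signalling chain of the B cell receptor, had an even larger difference but did not pass, with values of 11.26, 9.34 and 3.45 in S14D and 11.79, 11.30, 12.07 and 11.87 in S21D piglets (3.74 (standard error 1.91, adjusted p = 0.215)). S14D replicate 3 was the lowest array by more than 5 units in CD79B and S14D replicate 1 nearly equalled the S21D arrays. The inhibitory Fc receptor FCGR2B (4.42), the factor SPI1 (2.12), FAM129C (1.93), the adaptor BLNK (1.14) and the kinase LYN (0.69) rose, and the first pair are shared with the myeloid list. The calls were 9 without S14D replicate 1, 0 without S14D replicate 2, S14D replicate 3 or S21D replicate 3, 2 without S21D replicate 1 and 3 without S21D replicate 4. The B cell list mean was 0.00, -1.18 and -2.94 in the S14D arrays and 0.99, 0.78, 1.36 and 0.98 in the S21D arrays. Of 5 germinal centre genes EZH2 (2.35), a histone methyltransferase that dividing cells use too, and APEX2 (0.62) rose, with 1 call without S21D replicate 4 and 0 without S14D replicate 2 or 3 or S21D replicate 1 or 3.

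Immunoglobulin secretion was measured by fewer genes. JCHAIN, which joins IgA and IgM chains, was stable with values of 12.80, 12.81 and 11.44 in S14D and 14.22, 14.46, 14.49 and 14.21 in S21D piglets (2.00 (standard error 0.34, adjusted p = 0.002)). All S21D arrays lay above 14 units and all S14D arrays below 13. PIM2 (1.84) and CD38 (1.82) also rose, though not without S14D replicate 3, and the other 7 of the 10 plasma cell genes were not called. The gene LOC396781, an immunoglobulin gamma heavy chain by its synonym in the gene table, is named after its values were seen, with values of 10.10, 9.40 and 6.20 in S14D and 12.78, 13.34, 13.57 and 13.13 in S21D piglets (4.64 (standard error 0.96, adjusted p = 0.00685)). Immunoglobulin chains share sequence, so that its probe set may read several of them.

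Of 22 T cell genes 6 rose and none fell, with a median of 0.57. CD8A, a co-receptor of cytotoxic and intraepithelial T cells, had values of 6.17, 5.04 and 5.85 in S14D and 7.48, 7.88, 8.28 and 7.56 in S21D piglets (2.11 (standard error 0.53, adjusted p = 0.019)). IL2RG, the common chain of several interleukin receptors, had values of 7.52, 5.62 and 4.12 in S14D and 8.26, 8.59, 9.21 and 8.90 in S21D piglets (2.99 (standard error 0.86, adjusted p = 0.0324)), and S14D replicate 3 was its lowest array. The receptor chains CD247 (2.68), CD3E (1.55) and CD3G (0.66) and the kinase LCK (2.35) rose, and CD3D (0.45, adjusted p = 0.61) and CD2 (1.48, adjusted p = 0.0754) did not pass. The calls were 8 without S14D replicate 1, 0 without S14D replicates 2 or 3 or S21D replicate 3, 2 without S21D replicate 2 and 3 without S21D replicates 1 or 4. CCR9, the receptor that brings T cells to the small intestine, was one of the stable rises, with values of 4.51, 4.50 and 4.36 in S14D and 6.65, 6.44, 6.87 and 6.32 in S21D piglets (2.12 (standard error 0.35, adjusted p = 0.00165)). Its S14D arrays were nearly equal. Of 12 genes of cytotoxic and natural killer cells only the adaptor TYROBP was called, and in the mean of that list S14D replicate 1 was the lowest array.

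Some genes of antigen presentation rose in both classes, a larger share of them in class II, while most class I genes were not called. Of 11 MHC class II genes 7 rose and none fell, with a median of 1.5. CD74, the invariant chain, had values of 9.66, 8.53 and 7.67 in S14D and 10.76, 10.45, 11.16 and 10.67 in S21D piglets (2.14 (standard error 0.53, adjusted p = 0.0179)). SLA-DOA, a modulator of peptide loading, had values of 3.37, 2.08 and 2.08 in S14D and 4.12, 4.19, 6.26 and 5.08 in S21D piglets (2.40 (standard error 0.76, adjusted p = 0.0477)) with 2 S14D arrays at the floor. The other rises were SLA-DMA (1.95), SLA-DMB (1.73), SLA-DRB1 (1.58), SLA-DRA (1.5) and SLA-DQA1 (1.44). A second probe set of SLA-DMA gave the opposite, a fall from a mean of 10.57 to 9.49 (-1.08, adjusted p = 0.00275), so that its count as a rise holds for the brightest probe set only and 6 of the 7 rises had no such conflict. The calls were 6 without S14D replicate 1, 0 without S14D replicates 2 or 3, 2 without S21D replicate 3, 3 without S21D replicate 1 and 4 without S21D replicate 2.

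Of 17 MHC class I genes 5 rose and 2 fell, with a median of 0.21. TAP1, which pumps peptides into the endoplasmic reticulum, had values of 9.71, 10.03 and 9.80 in S14D and 11.04, 11.45, 11.37 and 11.37 in S21D piglets (1.46 (standard error 0.29, adjusted p = 0.0052)). SLA-8 had values of 8.46, 8.29 and 8.41 in S14D and 9.76, 9.87, 10.10 and 10.08 in S21D piglets (1.57 (standard error 0.16, adjusted p = 3.04e-05)). PSMB8, a subunit of the immunoproteasome, rose by 1.46, and all 3 genes were stable. CD1.1 (4.04), which presents lipids, and SLA-6 (1.82) rose without being stable, the chaperone CANX (-0.58) and the Fc receptor FCGRT, which has a class I fold, fell, and the light chain B2M (0.09, adjusted p = 0.686) was not called in its brightest probe set, while another fell (-0.65, adjusted p = 0.00711). In TAP1 and SLA-8 the S14D arrays lay close together. The rises numbered 3 without S14D replicate 3, and the falls 0 without S14D replicate 2 or 3 or S21D replicate 3 and 1 without S21D replicate 1 or 4. Class I genes are similar in sequence and a probe set may read more than 1. S28D piglets (n = 4) had 12.05 ± 0.70 for TAP1 against 11.31 ± 0.18 in S21D piglets, given as a description.

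Of 44 genes of leukocyte chemotaxis and adhesion 6 rose (13.6%) and 3 fell (6.82%), with a median of 0.32. These shares were not far from the background of 10.3% and 10.1%. SLA-DOA, the integrin chain ITGB2 (2.25), VAV1 (2.20), CCR9, ICAM2 (1.68) and CXCL14 (1.52) rose, and PECAM1 (-0.73), CCL14 (-0.63) and ITGB1 (-0.48) fell. A few genes are given because they were also followed by real-time PCR at these ages. VAV1, which activates Rac in lymphocytes, had values of 10.01, 8.97 and 7.36 in S14D and 10.88, 10.84, 11.20 and 11.01 in S21D piglets (2.20 (standard error 0.67, adjusted p = 0.04)), and a second probe set gave 2.57 (adjusted p = 0.0376). CXCL13, the chemokine of B cell follicles, had values of 11.49, 12.62 and 9.45 in S14D and 14.18, 13.97, 14.39 and 13.78 in S21D piglets (2.89 (standard error 1.86, adjusted p = 0.354)), and its second probe set gave 3.77 (adjusted p = 0.185). The adhesion molecules ICAM1, with values of 8.54, 7.92 and 7.88 in S14D and 9.79, 9.45, 9.79 and 9.74 in S21D piglets (1.57 (standard error 0.53, adjusted p = 0.0582)), and VCAM1, with values of 13.19, 12.26 and 11.27 in S14D and 13.64, 13.66, 13.98 and 13.36 in S21D piglets (1.42 (standard error 0.56, adjusted p = 0.103)), did not pass either. For all of these genes every S21D array was above every S14D array. The list had 8 rises without S14D replicate 1, 1 without S14D replicates 2 or 3 or S21D replicate 3, 2 without S21D replicates 1 or 4 and 3 without S21D replicate 2.

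Of 29 regulators of Rac and actin in leukocytes 11 rose and 1 fell, with a median of 1.27. The largest rises were the GTPase-activating proteins ARHGAP25 (2.74) and ARHGAP30 (2.58), the actin-capping CAPG (2.54), VAV1 and the bundling protein LCP1 (2.18), followed by ARHGDIB (2.12), ARHGEF6 (2.10) and RAC2 (1.63), the Rac of blood cells. The adaptor SKAP2 (-0.80) fell. Of 5 LCP1 probe sets 4 passed, and the one that did not gave 1.48 (adjusted p = 0.0781). Without S14D replicate 1 there were 18 rises. Without S14D replicate 2 there were 3, without S14D replicate 3 there were 2, without S21D replicate 1 or 4 there were 5 and without S21D replicate 3 there were 4.

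Myeloid genes held their calls better than the lymphocyte genes when arrays were left out. Of 32 genes of macrophages, dendritic cells and granulocytes 14 rose and 1 fell, with a median of 1.01. The 14 rises had groups that did not overlap, as had 641 of the 694 rises over all genes. Stable were 7 of the 14, against 104 of the 694. TYROBP, an adaptor of activating receptors, had values of 9.24, 9.07 and 9.0 in S14D and 10.13, 10.08, 10.26 and 10.42 in S21D piglets (1.12 (standard error 0.16, adjusted p = 5.93e-04)). C1QC, the complement chain made by tissue macrophages, had values of 10.39, 9.90 and 10.29 in S14D and 11.76, 12.04, 12.15 and 11.58 in S21D piglets (1.69 (standard error 0.32, adjusted p = 0.00415)). CD86, a co-stimulatory ligand, had values of 7.04, 5.89 and 5.33 in S14D and 7.93, 8.05, 8.70 and 8.08 in S21D piglets (2.10 (standard error 0.36, adjusted p = 0.00229)). In TYROBP and C1QC the S14D arrays were close together, and in CD86 they were spread with replicate 1 the highest. IRF8, a factor of dendritic cells and B cells, had S14D replicate 3 as its lowest array, with values of 10.28, 9.10 and 7.74 in S14D and 11.64, 11.35, 11.79 and 11.43 in S21D piglets (2.51 (standard error 0.54, adjusted p = 0.0086)). SCIMP (3.45), the oxidase subunits NCF1 (2.49) and CYBA (1.04), PLEK (1.84), SIRPA (1.70), C1QA (1.61), FCER1G (1.38) and AIF1 (1.22) rose, and the single fall was LGMN, which the lysosomal list holds too. CD14 lay at the floor in all 7 arrays and CD163 (1.28, adjusted p = 0.297) did not pass. The calls were 7 without S14D replicate 3, 8 without S14D replicate 2 and 9 without S21D replicate 3.

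In the mean of the interferon-induced genes a different S14D array was the lowest than in those of the B cell, T cell and myeloid lists. Of 27 genes 8 rose and none fell, with a median of 0.72. XAF1, a pro-apoptotic interferon target, had values of 3.68, 5.42 and 4.54 in S14D and 6.99, 7.73, 8.57 and 8.01 in S21D piglets (3.28 (standard error 0.60, adjusted p = 0.00346)). IFIT1, which binds foreign RNA, had values of 8.65, 9.72 and 9.54 in S14D and 11.53, 11.88, 11.93 and 11.25 in S21D piglets (2.34 (standard error 0.45, adjusted p = 0.00436)). S14D replicate 1 was the lowest array in both, and the mean of the list was -1.01 in that array against -0.28 and -0.35 in the other S14D arrays and 0.11, 0.47, 0.62 and 0.44 in the S21D arrays. MX1 (2.13), DDX60 (2.10), ISG15 (1.99), USP18 (1.83), IFI44L (0.97) and SP110 (0.72) rose by less. XAF1, IFIT1 and USP18 were stable, and 5 genes were called without S14D replicate 1 or S21D replicates 2 or 3, 6 without S14D replicate 2 or S21D replicate 4 and 4 without S14D replicate 3. UBD, a ubiquitin-like protein induced by cytokines, also rose, with values of 9.81, 10.49 and 10.40 in S14D and 13.53, 12.83, 12.54 and 13.06 in S21D piglets (2.76 (standard error 0.36, adjusted p = 3.28e-04)), and the groups were more than 2 units apart.

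Of 27 complement genes 3 rose (11.1%) and 2 fell (7.41%), near the background in both directions. C1QC, C1QA and C2 (2.50) rose, and the terminal components C9 (-2.12) and C8B (-2.88) fell, the latter to the floor, while a second probe set of C9 gave -3.46 (adjusted p = 0.101). The rises numbered 6 without S14D replicate 1 and 1 without S14D replicate 2 or 3, and the falls 1 whichever array was left out. Of 24 antimicrobial and mucosal defence genes only DMBT1, a secreted scavenger receptor, was called, with values of 12.54, 12.75 and 13.46 in S14D and 10.25, 10.23, 8.28 and 10.10 in S21D piglets (-3.20 (standard error 0.82, adjusted p = 0.0201)), and its call was lost without S14D replicate 2 or 3 or S21D replicate 3. Without S14D replicate 1 there were 2 rises and 2 falls in this list. The neutrophil and epithelial proteins BPI (-3.65, adjusted p = 0.0697) and SLPI (-2.91, adjusted p = 0.0624) were lower and the M cell receptor GP2 (3.33, adjusted p = 0.0517) and the polymeric immunoglobulin receptor PIGR (1.34, adjusted p = 0.0574) higher in mean, without passing. Dimmer probe sets of BPI (-3.62, adjusted p = 0.037) and GP2 (2.51, adjusted p = 0.0236) did pass.

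Housekeeping genes were mostly a little higher in S21D piglets, and the arrays were not quite even. The median over all probe sets was 5.34, 5.20 and 5.07 in the S14D arrays and 5.26, 5.25, 5.24 and 5.27 in the S21D arrays. Of 9 reference genes 2 rose (22.2%) and none fell, 8 differences were positive and the median was 0.28. Of 58 cytosolic ribosomal genes 2 rose (RPL30 (0.61) and RPS16 (0.30)) and none fell, but 55 differences were positive, with a median of 0.18. Of 30 proteasome genes 8 rose and none fell, with small differences (median 0.29) led by PSMA3 (0.50) and PSMA6 (0.48). Leaving out S14D replicate 1 gave 15 ribosomal and 13 proteasome calls, and leaving out S14D replicates 2 or 3 gave 0 ribosomal calls and 2 and 1 proteasome calls. S21D replicates 1 and 3 left out gave 0 ribosomal calls, and S21D replicates 2 and 4 gave 1. For the proteasome S21D replicates 1, 2, 3 and 4 gave 3, 5, 3 and 4. Centring all arrays on their medians gave 3 ribosomal and 2 proteasome rises. Of 9 erythrocyte genes 1 rose and 1 fell, BPGM (1.70) and UROD (-0.63), both lost without S14D replicate 2 or S21D replicate 1, 3 or 4. The mean of the erythrocyte list was 1.61 in S14D replicate 1, 0.20 and -0.78 in the other S14D arrays and -0.45 to -0.01 in S21D piglets, so that the spread among the S14D arrays was wider than that between the groups. AHSP, which chaperones alpha-globin, had values of 7.78, 4.24 and 2.08 in S14D and 2.91, 2.08, 2.08 and 2.08 in S21D piglets, with S14D replicate 1 again far above the rest.

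**Figure D4:**
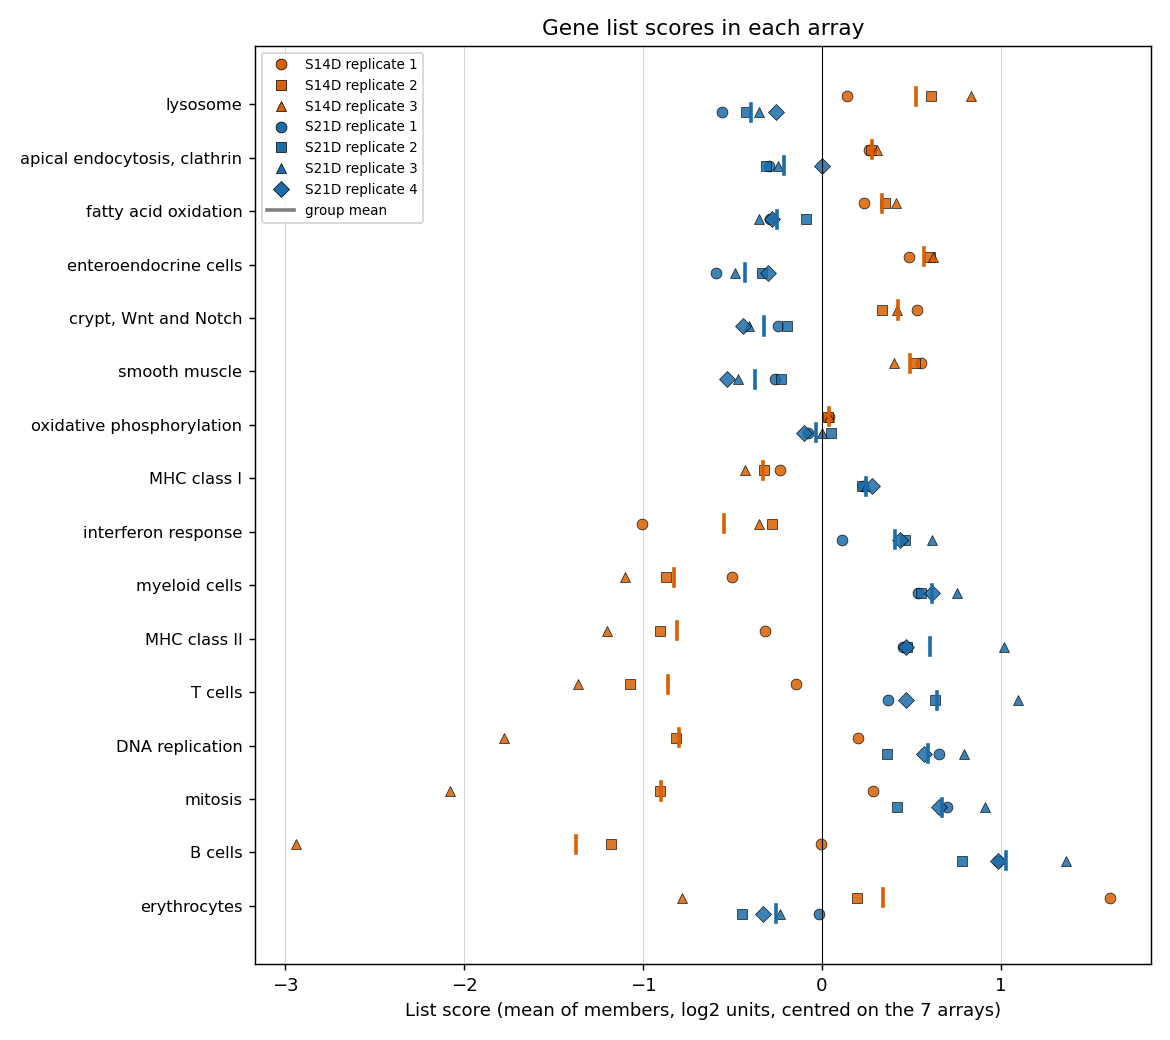
Means of 16 gene lists in each of the 7 arrays, in log2 units centred on the 7 arrays (horizontal axis), with orange symbols for S14D, blue symbols for S21D, the symbol shape for the replicate number and a bar at each group mean. For B cells, mitosis and DNA replication the S14D arrays spread from near the S21D arrays (replicate 1, circle) to far below them (replicate 3, triangle). For fatty acid oxidation, enteroendocrine cells and smooth muscle the S14D arrays lie close together, and for erythrocytes the groups overlap.

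Further down the ranking, 20 rises and 20 falls stood in places 11 to 30 by size among called genes with groups that did not overlap. Among the rises, GP91-PHOX, the catalytic subunit of the phagocyte oxidase, had values of 11.04, 9.08 and 7.49 in S14D and 11.99, 11.88, 12.35 and 12.16 in S21D piglets (2.89 (standard error 0.89, adjusted p = 0.0421)). LY96, the partner of TLR4 in sensing endotoxin, had values of 7.66, 7.01 and 6.51 in S14D and 9.64, 9.79, 10.13 and 9.27 in S21D piglets (2.65 (standard error 0.51, adjusted p = 0.00448)). IL10, an anti-inflammatory cytokine, was dim but even in S21D piglets, with values of 4.93, 3.70 and 3.81 in S14D and 6.88, 6.85, 6.98 and 6.85 in S21D piglets (2.74 (standard error 0.62, adjusted p = 0.0112)). AOAH (2.76), which inactivates endotoxin, RGS1 (2.87), a regulator of chemokine signalling, and ALOX15 (2.64), a lipoxygenase, rose as well, and LY96, AOAH and RGS1 were stable. The remaining rises, beside those given above, were LOC100152327 (3.37), SLAIN1 (3.08), SIX4 (2.91), APOF (2.84) and LYAR (2.69).

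Among the falls in these places, GCAT, a mitochondrial enzyme of threonine breakdown, had almost no spread, with values of 7.74, 7.83 and 7.79 in S14D and 3.63, 3.63, 3.63 and 3.75 in S21D piglets (-4.12 (standard error 0.08, adjusted p = 4.77e-14)). Its nearly constant S21D values may be the lowest level that this probe set gives, although they lie above the floor. The small standard error is then a poor measure of the spread between animals. PRKAA2, a catalytic subunit of the AMP-activated kinase, had values of 7.40, 7.62 and 7.89 in S14D and 4.22, 3.52, 3.59 and 3.83 in S21D piglets (-3.85 (standard error 0.24, adjusted p = 1.60e-07)). In both genes the groups lay more than 3 units apart. RENBP (-3.51), an epimerase of amino sugars, RBP5 (-3.24), a retinol-binding protein, ETNK2 (-3.13), an ethanolamine kinase, GPX3 (-3.72), a secreted glutathione peroxidase, and the anion and monocarboxylate transporter relatives SLC26A11 (-3.70) and SLC16A13 (-3.62) fell and were stable. FOLH1B (-4.08), whose probe set may also read the folate hydrolase FOLH1, fell to the floor. The other falls were MMP20 (-3.76), PLXNA2 (-3.07), UPK3A (-3.11) and LBP (-3.03), which binds bacterial lipopolysaccharide. Nearly all of these falls, unlike most of the rises, were called whichever array was left out, with UPK3A, LBP and DMBT1 the exceptions. Over all called genes, the closest arrays of the groups were a median of 0.43 apart in falls and 0.29 in rises, and they were at least 1 unit apart in 119 falls and 60 rises.

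Some of the genes named above have more than 1 probe set. Beside the exceptions given with the genes, a probe set that did not share the call of the brightest one lay within 1 unit of the floor in both groups for AOAH, ARHGAP25, BHLHE40, CA9, CD247, ETNK2, FAM129C, HPSE, IGF1R, LBP, LCK, LYN, LYVE1, MCM5, NEK2, PCK2, PDGFRB, PKM, PSAP, RAC2, RAD54L, RGS1, SIRPA, SIX4, SLA-6, SLA-DRB1, SLC26A11, TAP1, TAT, THRB, TPP1, TYMS, VAV1 and VCL. Other probe sets, dimmer than the one read but not as near the floor as these, also did not pass, and they had the sign of the called one for NPC2 (-0.24), SCARB2 (-1.13), RAB11B (-0.43), GAPDH (0.63), CANX (-1.19), SKAP2 (-1.05), PECAM1 (-0.28), NCF1 (1.46), ARHGEF6 (0.21), CXCL14 (0.87) and IFI44L (1.05 and 1.27), while those of AP1B1 (0.11) and SP110 (0.03) were near 0. In CTSC and TLR4, whose brightest probe sets did not pass, another did (-1.55 and 1.87).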

How the data were processed

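The 20 ileal mucosa arrays were 3' expression arrays (GeneChip Porcine Genome Array), and the groups came from the deposited labels. Per the methods the authors normalized them with gcRMA and log-transformed them, and the deposited values are log2 units per probe set. The base was taken from their range, and GCOS 1.2 and GCRMA are named in the submitters' processing notes without further versions. gcRMA compresses differences near its floor, and 41.5% of the values of the 7 arrays lay within 1 unit of it. Raw intensities, scan dates and the litter of each array were not used here. The labels give another amount of RNA than the methods, and the labels of a pair of older groups are in doubt, but these groups enter only the spread.

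Here 124 control probe sets were left out and limma 3.58.1 (lmFit and eBayes, R 4.3.3) took in all 20 arrays, with a mean for each group and Benjamini-Hochberg adjustment over 23999 probe sets. The platform annotation gives a single symbol for 10069 of them (9961 found in a gene table of Sscrofa11.1), several for 198 and none for 13732. A gene was read from its probe set with the highest mean over the 20 arrays. Gene lists of 2138 genes, of which 1220 were measured, were written from textbook knowledge, and the members, lists and tests were chosen with earlier results of these data known. Up to 5 called members of each list with the largest differences were named, with members needed to state a role, ranks 11 to 30 by size and the study's PCR genes. Other members of a list are named as examples, after their values were seen. A list mean covers members that reach 4 log2 units in some array. The test was tested on simulated data. Replicate numbers were checked for pairing: the correlations of same-numbered arrays were 0.20, 0.13 and -0.18 after centring, so that they were not treated as pairs. Python 3.11.15 with matplotlib 3.10.9 drew the figures. Alternatives were no fold minimum, a filter on dim probe sets, only the S14D and S21D arrays, an intensity trend, array weights, median centring, quantile normalization, a replicate block, the methods' t-test and each array left out.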

Additional observations from a re-analysis of the deposited data

Results flagged for a closer look

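Among the 4 S21D arrays the gap between the array farthest from the rest and its neighbour was compared with the range of the group by Dixon's test, over 297 genes and 44 list means, and likewise among the 4 S28D arrays for the 6 genes whose S28D values are given. Chance flags about 1 in 20 groups. Of these tests 34 passed, all in S21D, and the 3 S14D arrays were not tested.

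S21D replicate 4 stood above the others of its group in HEXA at 11.01 (others 10.18 to 10.31), SLC46A1 at 5.98 (others 4.55 to 4.79) and RAB11B at 10.21 (others 9.84 to 9.88), and in the mean of the fat export list at 0.13 (others -0.74 to -0.60). The means of the lysosomal and endocytosis lists were not apart by this test. The array was also apart in XPC at 8.49 (others 7.75 to 7.77), ETNK2 at 4.67 (others 4.13 to 4.14), ODC1 at 12.54 (others 12.76 to 12.79) and GCAT at 3.75 (others 3.63).

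S21D replicate 3 had the highest mean of MHC class II genes at 1.02 (others 0.45 to 0.48) and of proteasome genes at 0.19 (others 0.06 to 0.07), and the highest BLNK at 14.12 (others 13.74 to 13.76), HK1 at 9.67 (others 9.45 to 9.47) and GPX3 at 2.74 (others 2.21 to 2.22). It was the lowest in DMBT1 at 8.28 (others 10.10 to 10.25), C9 at 9.77 (others 11.14 to 11.37), CPS1 at 13.04 (others 13.71 to 13.79), ACADM at 13.07 (others 13.36 to 13.42) and CCL14 at 2.35 (others 2.56).

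S21D replicate 2 was the lowest in FOLR2 at 5.69 (others 6.35 to 6.40), CDC45 at 9.37 (others 9.62 to 9.67), NUF2 at 10.80 (others 11.22 to 11.31), ICAM1 at 9.45 (others 9.74 to 9.79), BPGM at 9.01 (others 9.67 to 9.71), SCARB1 at 6.46 (others 7.07 to 7.19) and GNPDA1 at 8.86 (others 9.33 to 9.43), and the highest in GALM at 10.36 (others 10.04 to 10.07). S21D replicate 1 was apart in NR3C1 at 7.14 (others 6.80 to 6.85) and ERG at 4.58 (others 4.82 to 4.84), and in the erythroid genes AHSP at 2.91 (others 2.08) and ALAS2 at 3.00 (others 2.08 to 2.11). The remaining ones lie at the floor, where the test has little meaning, with TAT in S21D replicate 1 at 2.08, and DIO1 at 2.18, THRB at 2.09 and C8B at 2.09 in S21D replicate 4. For ETNK2, GCAT and CCL14 the other S21D arrays were nearly identical. They may lie at the lowest level of their probe sets, where the test has as little meaning.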

How the results depend on the processing

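Against 895 probe sets higher and 987 lower, dropping the fold minimum gave 1744 and 1831, and array weights, whose estimation stopped before it converged, gave 1676 and 1597. With only the S14D and S21D arrays in the fit there were 442 higher and 871 lower, and with the methods' t-test after Benjamini-Hochberg adjustment 426 and 837 (1214 and 1307 at the unadjusted threshold). By list, the fit to only these arrays called 1 mitotic, 1 DNA replication, 0 germinal centre, 4 B cell and 2 T cell genes higher. It called 5 MHC class II, 11 myeloid and 11 interferon genes higher and 22 lysosomal genes lower. With the replicate number as a block there were 442 higher and 807 lower, and since the numbers did not pair the arrays this is given for completeness. Leaving out each array in turn gave 188 to 1496 higher, lowest without S14D replicate 3 and highest without S14D replicate 1, and 448 to 1268 lower. The dim filter, the intensity trend, median centring and quantile normalization gave 862 to 1214 higher and 976 to 1134 lower, and the causes of these differences were not tested. Of 189 called genes under the naming rule, 67 were called whichever array was left out and none of these changed sign in any of the settings run. The dim filter left 178 of the 189 to be tested, of which 1 lost the call. With the trend, array weights, centring or quantile normalization 3 to 7 of them lost it, with the block 77, with only these groups 84 and with the adjusted t-test 86. Among named genes that were not called, the sign turned with array weights in the gene CD3D (-0.0254) and the gene CPT1A (-0.0289), and as each array was left out the gene B2M ran from -0.0413 to 0.178 and CPT1A from -0.0737 to 0.168. Dim genes are limited by the compression at the floor.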

Other observations

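Genes of a few further functions were grouped after their values had been seen, so that the counts below are descriptions and support nothing. Among 15 measured genes of sialic acid and amino sugar use, 6 fell and 1 rose, with a median of -0.52. The falls were NEU1, the epimerase RENBP, the sialic acid lyase NPL (-2.76), PGM3 (-2.08), AMDHD2 (-1.64) and GNPDA1 (-1.57), and the rise was NANS (0.43), the synthase. Among 7 genes of lactose and galactose use 3 fell and none rose, the beta-galactosidase GLB1 and the galactokinases GALK1 (-1.60) and GALK2 (-1.72), while GALT (-1.37, adjusted p = 0.0843) and GALM (-1.08, adjusted p = 0.0604) were lower without passing.

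Folate genes changed in both directions. Of 12 measured, 4 fell, FOLH1B, FOLR2, SLC46A1 and the lysosomal hydrolase GGH (-1.76), and 4 rose, the receptor FOLR1 (1.86), the one-carbon enzymes MTHFD1 (0.98) and MTHFD2 (1.25), and TYMS, with a median of 0.09. Those that fell act in folate uptake and deconjugation, and apart from FOLR1 those that rose use folate to make nucleotides. Of 14 splicing factors of the SR family and their CLK kinases, 9 rose and none fell, with a median of 0.66.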
